A study of Homo sapiens with 4 samples.

Results

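To describe m6A on transcription factors of the gastrointestinal lineage, 8 genes were examined in the m6A map of OE-19 cells, an established cell line of adenocarcinoma of the esophagogastric junction (AEG). The genes were GATA4, GATA6, HNF4A, HNF4G, CDX1, CDX2, ELF3 and EHF, 8 of the 20046 protein-coding genes in the GENCODE annotation of hg38. Their peaks were all those whose summit, the position of strongest enrichment, lay between the ends of the gene, which gave 16 of the 24607 peaks of replicate 1 and 15 of the 19318 peaks of replicate 2. In meRIP-seq, an antibody against N6-methyladenosine (m6A) enriches the RNA fragments that carry this mark, and a peak is a stretch with more IP reads than its surroundings. There were 4 samples of unmodified, untreated OE-19 cells, 2 of them m6A immunoprecipitations (IP) and 2 of them input RNA, and the study calls its replicates biological. The labels describe cells fixed with UV, whereas the methods describe fragmented total RNA. Only the IP samples had a peak list here, so the values form 1 group, no test between groups was possible, and the differences are set beside the spread between the 2 replicates.

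These factors set the identity of columnar epithelium. GATA4 and GATA6 are zinc finger factors that open chromatin in early endoderm and remain active in stomach and intestine. HNF4A and HNF4G are nuclear receptors that drive the enterocyte and liver programmes, CDX1 and CDX2 are homeobox factors that specify intestine, and ELF3 and EHF are ETS factors of differentiated epithelium. Several are amplified or re-expressed in adenocarcinomas of the esophagus and stomach. An mRNA usually carries m6A at an adenine in a GGAC-like core, often in long internal exons and near the stop codon in the last exon, and such marks are read by YTH and IGF2BP proteins that alter decay and translation.

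The GGAC sites nearest to summits are given for some of the genes as positions of the motif, and do not show that its adenine was methylated. Peaks of the 2 replicates were paired where each overlapped the other most. For the exonic pairs of every gene but GATA4, the site nearest to the midpoint of both summits is printed where it was within 100 nt of a summit, in hg38 and on the strand of the gene, with GGAC in capitals and 25 bases in all. The intervals, in the same order as the lines, were chr18:22171348-22171372 in coding sequence (CDS), chr20:44429885-44429909 in the 3′ UTR, chr13:27968879-27968903 in CDS and chr13:27962720-27962744 in the 3′ UTR. Then came chr1:202015473-202015497 and chr11:34658937-34658961, with the adenine of GGAC 164 and 20 nt after the stop codon, and chr11:34662281-34662305 in the distal 3′ UTR. CDX2 is on the minus strand and the others are on the plus strand.
GATA6 exon 2: ggcggcggccGGACccccggcccgc
HNF4A exon 10: ctactgccttGGACaacttttctca
CDX2 exon 1: cgcagtacccGGACtacggcggtta
CDX2 exon 3: ggggagagagGGACtcaagggaaag
ELF3 exon 9: catcgtcctgGGACtcggagactat
EHF exon 9: ccaatactttGGACacaaaccaaaa
EHF distal 3′ UTR: caaccttcaaGGACatattatctac

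Firstly, the genes with m6A peaks were counted, among 8 genes chosen with earlier results of these data known. GATA4, GATA6, HNF4A, CDX2, ELF3 and EHF had a peak with the summit in one of their own exons in both replicates, and HNF4G and CDX1 had no peak anywhere in the gene body in either replicate. The count was thus 6 of 8 genes in both replicates, against 33.4% of all protein-coding genes and 35.4% of the 14690 genes whose exonic length fell within the range of the 8 (1775 to 10167 bp). It was also 6 of 8 in replicate 1 alone and in replicate 2 alone, beside 42.4% and 34.1% of protein-coding genes. In 4 of the 6 genes, GATA4, GATA6, CDX2 and EHF, each replicate had at least 2 exonic peaks, beside 44.8% of the genes with an exonic peak in both. The lists do not measure expression, and a gene that is not transcribed has no peak, so missing peaks on HNF4G and CDX1 do not separate unmethylated from unexpressed RNA. With a fold enrichment of 5 or more required in each replicate, 2 of the 8 genes remained, GATA4 and CDX2, against 19.3% of protein-coding genes.

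**Figure D1:**
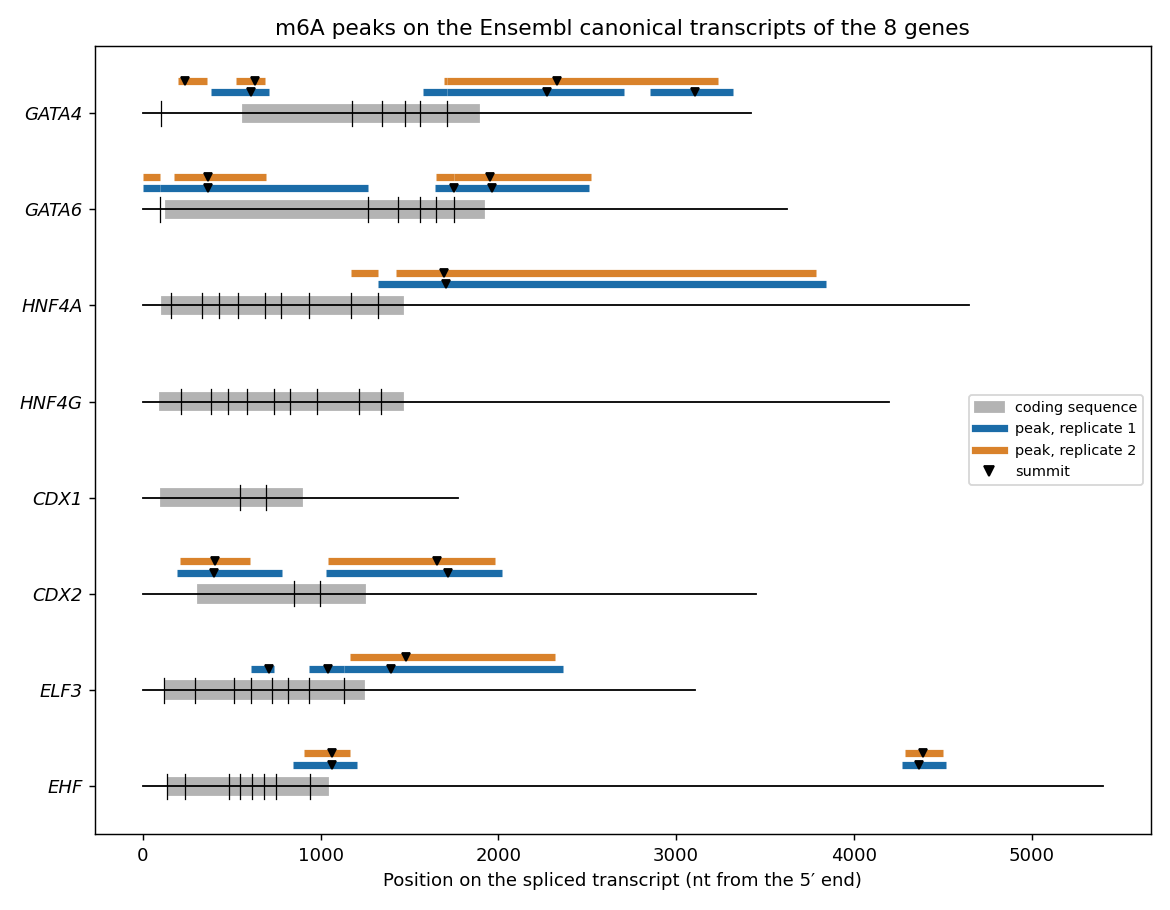
Peaks on the spliced Ensembl canonical transcript of each gene, with position in nt from the 5′ end on the x axis, CDS in grey, exon junctions as ticks, peak intervals as coloured bars (replicate 1 blue, replicate 2 orange) and summits as triangles. Parts of a peak in introns are not drawn, so peaks of neighbouring exons in GATA4, GATA6 and ELF3 run together, and summits outside exons have no triangle. HNF4G and CDX1 carry no bar, and 6 genes carry bars of both colours in the last exon.

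Then, the strength of the peaks was compared among the genes by the authors' fold enrichment, a ratio over the local background of the peak caller. Whether the input served as control for that background is not given, and the part of expression in this ratio was not tested. The strongest exonic peak of GATA4 reached 17.96 in replicate 1 and 11.06 in replicate 2. That of CDX2 had 13.31 and 6.62. HNF4A had 6.98 and 4.25, a weaker peak than those of GATA4 and CDX2 in both replicates. EHF had 6.12 and 3.98. GATA6 had 5.65 and 3.71. ELF3 came last with 2.75 and 2.31. The order of the 6 genes was the same in both replicates. Between neighbours, however, the ranges of the replicates overlapped for GATA4 and CDX2, CDX2 and HNF4A, HNF4A and EHF, and EHF and GATA6. Only ELF3 lay wholly below the gene before it. These ranges include a shift between the lists, as replicate 1 had the higher value in 80.0% of all exonic pairs.

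Against the strongest shared exonic peak of every protein-coding gene that had one, ranked by the geometric mean of both replicates, GATA4 stood at percentile 96.6 and CDX2 at 79.5. HNF4A, EHF and GATA6 stood at 35.2, 27.8 and 23.2. ELF3 stood at 2.3, near the bottom of the genes with a shared exonic peak. The median over all exonic peaks of the genes was 5.88 in replicate 1 (14 peaks, 1.55 to 17.96) and 3.95 in replicate 2 (11 peaks, 2.24 to 11.06), beside 5.30 and 4.82 for all exonic peaks of the lists. The group was thus above the list median in replicate 1 and below it in replicate 2. Without GATA4, the median of replicate 1 was 3.61.

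**Figure D2:**
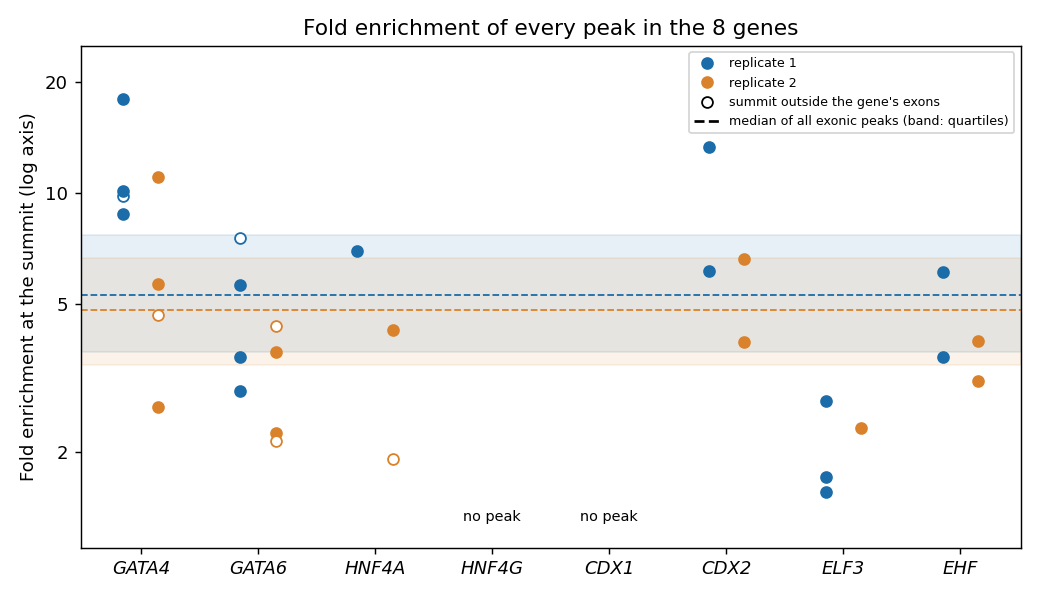
Fold enrichment at the summit (log axis) of every peak in the 8 genes, replicate 1 in blue and replicate 2 in orange, with open circles for summits outside the exons of the gene. Dashed lines and bands give the median and quartiles of all exonic peaks of each list. GATA4 reaches the highest values of both replicates, and all ELF3 peaks lie below both bands.

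GATA4 (ENSG00000136574.19, chromosome 8, 11676959 to 11760002, plus strand) had 4 peaks in each replicate. The strongest lay in exon 7, the last exon. It spanned 11758257 to 11759288 in replicate 1, where the summit was 382 nt after the stop codon and −log10 q was 70.9. In replicate 2 it spanned 11758231 to 11759821, the summit was at 442 nt and −log10 q was 51.2. Replicate 1 split this region, with a second peak of fold enrichment 10.1 that had its summit 1218 nt after the stop codon. The replicate 2 peak was long enough to overlap both, covering 89.4% of exon 7. Exon 2 carried a second shared peak, whose fold enrichment was 8.76 in replicate 1 and 5.68 in replicate 2. Its summits were 47 and 69 nt after the start codon. In replicate 2 alone, a weak peak of fold enrichment 2.65 lay in the 5′ UTR part of exon 2, 326 nt before the start codon.

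GATA6 (ENSG00000141448.11, chromosome 18, 22169589 to 22202528, plus strand), the paralogue of GATA4, also had 4 peaks in each replicate, all 4 shared. Its exon 2 peak was enriched 2.92-fold and 2.24-fold in replicates 1 and 2, with summits 235 and 232 nt after the start codon. The summits were 3 bp apart, and the nearest GGAC is the first of the sequences given above, with its adenine 20 and 17 nt before the summits. The last exon carried a peak near the stop codon, with a fold enrichment of 5.65 and 3.71 and summits at 48 and 33 nt after the stop codon. The summit also lay in an exon of ENSG00000266283, a long non-coding RNA on the minus strand, and the lists carry no strand. No GGAC lay within 50 nt of either of these last-exon summits.

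GATA4 and GATA6 shared a placement that no other gene of the group had in both replicates, a peak with its summit at the border of exon 6 and intron 6. On the spliced transcripts of both genes, this peak ran up to or nearly up to the last-exon peak. Whether it is separate from the last-exon peak was not tested. The stop codon peak of EHF also reached across the last exon junction in both replicates, with its summits in the last exon. In GATA4 the summit lay in intron 6, 5 nt past the exon in replicate 1 (fold enrichment 9.83) and 24 nt past it in replicate 2 (4.68). In GATA6 it lay in exon 6, at 1 nt from the junction, in replicate 1 (3.61) and in intron 6, 19 nt past the exon, in replicate 2 (2.14). Of these peaks, between 12% and 55.6% of the bases lay in exons of the gene, whereas every last-exon peak of GATA4 and GATA6 had at least 96.1% of its bases in exons. HNF4A had a similar but weaker peak in replicate 2 alone, in intron 9, with its summit 6 nt from an exon and a fold enrichment of 1.91. Thus the intronic summits outside all annotated exons, 1 in replicate 1 and 3 in replicate 2, were all within 50 nt of an exon, beside 20.8% and 8.43% of all intronic summits of the lists. The distance of 50 nt was chosen after these values were seen.

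The first peak of GATA6 lay at the start of the gene, enriched 7.58-fold from 22169475 to 22169791 in replicate 1 and 4.37-fold from 22169506 to 22169793 in replicate 2. It was the strongest peak in the gene body in both replicates, but its summits lay in intron 1, 9 and 31 nt past exon 1, and in an exon of GATA6-AS1, a divergent long non-coding RNA on the minus strand. Of its bases, 29.7% and 32.6% lay in exons of GATA6. As its summits lay outside the exons of GATA6, it was not counted as an exonic peak of GATA6. Without strand, it cannot be told apart whether this signal came from GATA6 or from GATA6-AS1.

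HNF4A (ENSG00000101076.20, chromosome 20, 44355699 to 44432845, plus strand) had a single shared peak, which was among the widest of the lists. It ran from 44429503 to 44432044 in replicate 1, 2542 bp, and from 44429623 to 44431984 in replicate 2, 2362 bp, at percentile 99.3 of exonic peak width in each. It covered 75.9% and 71.1% of exon 10, the last exon. The summits lay 243 and 228 nt after the stop codon, 15 bp apart, and on either side of the GGAC shown above. The part common to both replicates held 13 GGAC motifs. HNF4A is transcribed from a pair of promoters that give isoforms with different first exons. Of its 14 annotated coding transcripts, 3 had the summits in an exon, and they began at 44355699, 44401239 and 44401301, so the peak lies in sequence common to transcripts of both start regions. HNF4G (ENSG00000164749.13, chromosome 8, 75407914 to 75566834), its paralogue, has an exon of 2860 nt, but no peak.

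CDX2 (ENSG00000165556.10, chromosome 13, 27960918 to 27969315, minus strand) had 2 peaks, both shared. The stronger lay in exon 3, from 27962344 to 27963339 in replicate 1 and 27962384 to 27963324 in replicate 2, with summits 469 and 408 nt after the stop codon. Its fold enrichment of 13.31 and 6.62 stood at percentiles 95.2 and 74.7 of the exonic peaks of the lists, so its rank was lower in replicate 2. The other lay in exon 1, with a fold enrichment of 6.16 and 3.95. Its summits were 91 and 93 nt after the start codon, and the GGAC shown above lay 24 and 22 nt beyond them. The common part of this peak, 392 bp, held 6 GGAC motifs, or 15.31 per kb, the highest density among the 13 paired peaks. CDX1 (ENSG00000113722.18, chromosome 5, 150166778 to 150184558), which also has 3 exons, had no peak.

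GATA4, GATA6 and CDX2 thus had a shared peak in the long exon that holds the start codon, in addition to a peak in the last exon. These exons were 1073, 1172 and 850 nt long. A summit from 0 to 250 nt after the start codon was found for 3 of 13 summits in replicate 1 and 3 of 10 in replicate 2, among those on the transcript with the longest CDS. The corresponding shares were 10.1% and 7.44% for all protein-coding genes. The limit of 250 nt was set with the values in view, so this is a description of where the peaks lay.

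ELF3 (ENSG00000163435.16, chromosome 1, 202007945 to 202017183, plus strand) had 3 peaks in replicate 1 and 1 in replicate 2. The shared peak lay in exon 9, the last, from 202015203 to 202016442 in replicate 1 and from 202015246 to 202016400 in replicate 2, with summits 151 and 236 nt after the stop codon. Its fold enrichment of 2.75 and 2.31 was low, at percentiles 10.3 and 6.2, while its −log10 q of 28.7 and 24.7 was high, at percentiles 79.0 and 73.1. The common part of 1155 bp held 13 GGAC motifs. The summits also lay in an exon of ENSG00000249007, a long non-coding RNA on the same strand. The peaks of replicate 1 alone, in exons 5 and 8, had a fold enrichment of 1.55 and 1.71, at or below percentile 0.4 of the list.

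EHF (ENSG00000135373.13, chromosome 11, 34621093 to 34663288, plus strand), the close relative of ELF3, had 2 peaks, both shared. One lay at the stop codon, from 34658629 to 34659093 in replicate 1 and 34658693 to 34659053 in replicate 2, with summits 24 and 26 nt after the stop codon. It was enriched 3.61-fold and 3.11-fold. The GGAC shown above had its adenine 4 and 6 nt before these summits. The other peak was stronger, at 6.12 and 3.98, and lay far out in the 3′ UTR of the canonical transcript, with summits 3324 and 3349 nt after the stop codon. Only 1 of the 10 annotated coding transcripts of EHF extends that far, whereas 5 hold the summits at the stop codon. The distal summits were therefore left out of the counts of regions on the transcript with the longest CDS, which ends before them.

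Some shared peaks ranked much higher by q than by fold enrichment. For the last-exon peak of GATA6, fold enrichment was at percentiles 54.8 and 30.0, and −log10 q at 94.7 and 88.8. For HNF4A the percentiles were 69.1 and 40.3 for fold enrichment and 97.2 and 92.3 for −log10 q. For GATA4 they were close to each other, at 98.8 and 95.6 against 98.3 and 94.3. Weak unshared peaks ranked low by both measures, with percentiles of 0.1 and 1.8 for the exon 5 peak of ELF3, 0.4 and 12.5 for its exon 8 peak, and 11 and 8.5 for the 5′ UTR peak of GATA4. The q-value depends on the number of reads as well as on their ratio, which the lists do not hold, so the part of expression in this contrast was not tested. Over all exonic peaks of the genes, the median −log10 q was 27.7 in replicate 1 and 21.9 in replicate 2, beside 11.6 and 12.9 for the lists.

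**Figure D3:**
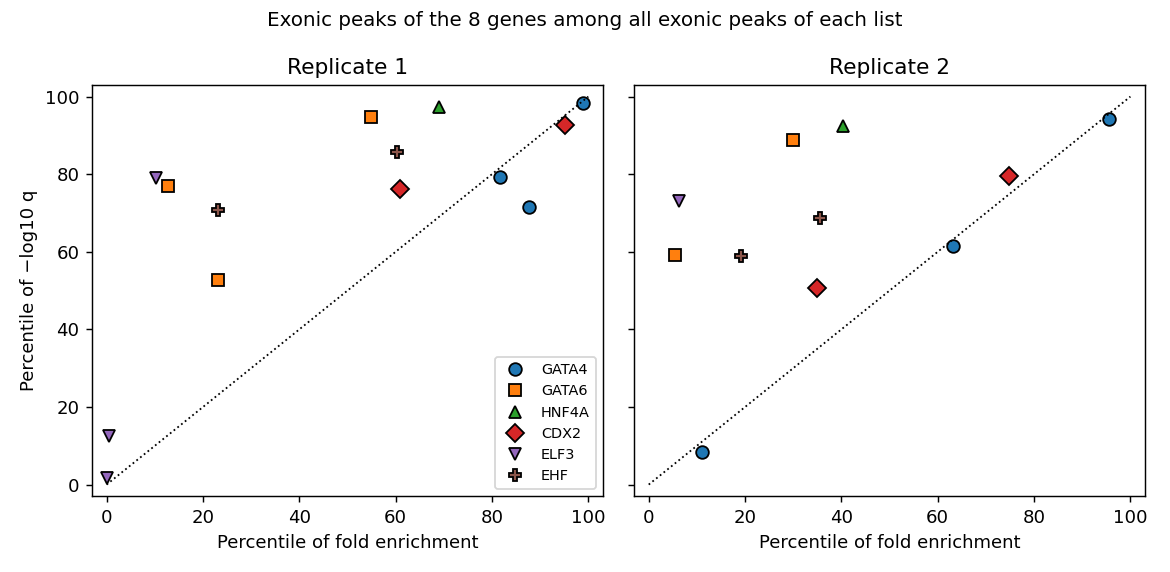
Percentile of fold enrichment (x axis) against percentile of −log10 q (y axis) for the exonic peaks of the genes, among all exonic peaks of replicate 1 (left) and replicate 2 (right). Points above the dotted line rank higher by q than by fold enrichment. In both replicates these include the shared peaks of ELF3, GATA6, HNF4A and EHF and the exon 1 peak of CDX2.

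Next, the reproducibility of these peaks was examined. Of the peaks in the gene bodies, 14 of 16 in replicate 1 (87.5%) and 13 of 15 in replicate 2 (86.7%) overlapped a peak of the other replicate. Among those with exonic summits the counts were 12 of 14 and 10 of 11, beside 60.2% and 95.0% of all exonic peaks. Among those with summits outside the exons of their own gene they were 2 of 2 and 3 of 4. These include the first peak of GATA6, which counts as exonic in the lists because it lies in an exon of GATA6-AS1. Of all intronic peaks of the lists, with summits outside every annotated exon, 39.6% and 36.0% were shared. Such summits of the genes numbered 1 in replicate 1 and 3 in replicate 2, and only that of HNF4A was unshared. The unshared peaks were the weak ones of ELF3 in replicate 1, and those in the 5′ UTR of GATA4 and intron 9 of HNF4A in replicate 2. None of these 4 had a fold enrichment above 2.65. The summits of the 13 pairs were 2 to 85 bp apart, with a median of 19 bp, and the median over 11741 exonic pairs was 26 bp.

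Replicate 1 had the higher value in 13 of 13 pairs, beside 80.0% of all exonic pairs. The log2 ratio of replicate 1 over replicate 2 ran from 0.22, for the stop codon peak of EHF, to 1.07, for the border peak of GATA4. Its median was 0.64, beside 0.43 for all exonic pairs. Of the 13 pairs, 3 had an intronic summit in at least 1 replicate, namely the GATA4 and GATA6 border pairs and the pair at the start of GATA6. The other 10 pairs, exonic like those of the background, were all higher in replicate 1, with ratios from 0.22 to 1.01 and a median of 0.62. Each replicate is 1 library, and a shift of the whole list is shared by all genes. Relative to all exonic pairs, the median excess of all 13 pairs, those with intronic summits included, was 0.21 on the log2 scale.

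**Figure D4:**
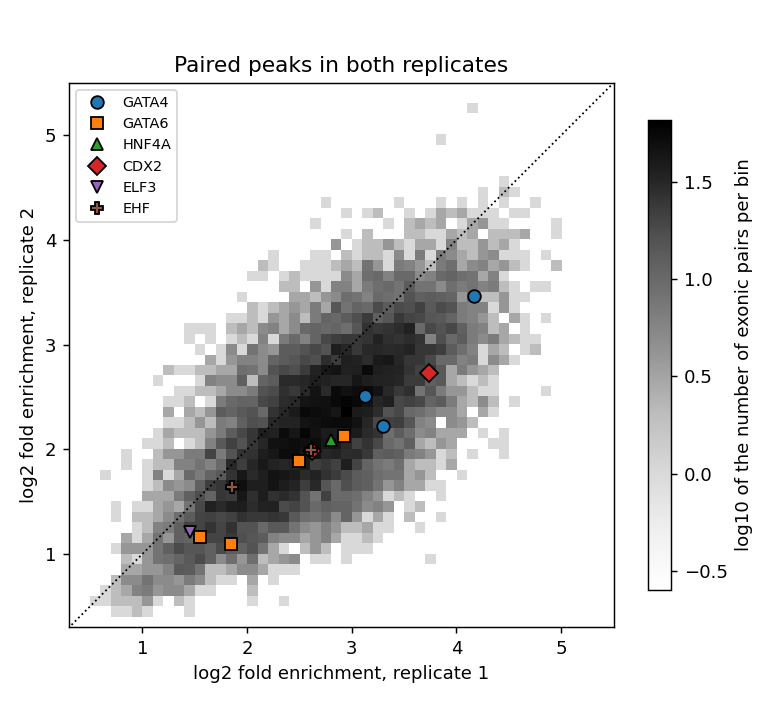
Log2 fold enrichment of paired peaks in replicate 1 (x axis) and replicate 2 (y axis). Grey squares count the 11741 exonic pairs on a log10 scale, coloured symbols are the 13 pairs of the genes, and the dotted line marks equal values. All 13 symbols lie below the line, and that of CDX2 exon 1 is partly hidden by EHF.

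To examine where in the transcript the summits lay, exonic summits were placed on the transcript with the longest CDS. In replicate 1, 4 of 13 lay within 200 nt of the stop codon, 4 in the rest of the 3′ UTR, 5 in the rest of the CDS and 0 in the 5′ UTR. In replicate 2, 2 of 10 lay in the stop codon window, 4 in the 3′ UTR, 3 in the CDS and 1 in the 5′ UTR. The stop codon window held 24.6% and 27.2% of all such summits of the lists, the 3′ UTR 17.3% and 18.9%, the CDS 49.5% and 48.4%, and the 5′ UTR 8.69% and 5.42%. The last exon held 7 of 13 and 6 of 10, beside 50.6% and 59.5%. Exons of 400 nt or more held 10 of 13 and 10 of 10, beside 74.8% and 88.8%. The 3 summits in shorter exons were the peaks of ELF3 seen in replicate 1 alone and the border peak of GATA6. The peaks were wide. In replicate 1, 5 of 14 exonic peaks, and in replicate 2, 4 of 11, spanned 900 bp or more, a limit set with the values in view, beside 11.2% and 12.5% of all exonic peaks.

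GGAC on the strand of the gene was then searched in the 50 nt to each side of a summit. Of the exonic summits, 7 of 14 had one in replicate 1 and 8 of 11 in replicate 2, beside 49.7% and 51.5% of all exonic summits. The share in replicate 1 was therefore that of the list. In the parts common to both replicates, the 13 pairs held 62 GGAC motifs in 8600 bp, or 7.21 per kb, and the 10 pairs with both summits in exons held 7.60 per kb, beside 6.15 per kb over all exonic pairs. The border peak of GATA6 had none in the common part, which spanned 294 bp.

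Further transcription factors were counted in the same way, from a list of 38 genes. It held factors of the foregut, pancreas and intestine, relatives of the 8 genes, and genes also counted as squamous markers below, PAX9 among them. The list was chosen with earlier results of these data known, so its share describes these genes only. Of the 38, 23 (60.5%) had an exonic peak in both replicates, beside 33.4% of all protein-coding genes. Another 2 had one in replicate 1 alone, and 13 had none. Among those with the strongest shared exonic peaks, by the geometric mean of fold enrichment, were PDX1 (19.7 in replicate 1 and 10.9 in replicate 2), ONECUT2 (9.40 and 11.5), BHLHA15 (9.71 and 8.31) and MNX1 (15.9 and 4.67). PDX1, the homeobox factor of pancreas and duodenum, was the only one of these with values above those of CDX2 in both replicates and a geometric mean above that of GATA4 (14.7 and 14.1). The list held 10 further GATA, CDX and ETS factors, named after their values were seen. GATA3, SPDEF, ELF1, ELF2 and ELF4 had exonic peaks in both replicates, whereas GATA1, GATA2, GATA5, CDX4 and ELF5 had none.

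Genes known to be driven by these factors were counted from a list of 22. It held genes of intestinal and gastric differentiation and the cyclin gene CCND1, and was also chosen with earlier results of these data known. Of the 22, only CCND1 (4.5%) had an exonic peak in both replicates, beside 33.4% of all protein-coding genes, with a fold enrichment of 2.10 and 1.85. None of the differentiation genes had one in both. VIL1, TFF1 and ALPI had one in replicate 1 alone, and 18 had none, among them CDH17, MUC2 and KRT20. Of 5 markers of columnar epithelium, CDH1 had an exonic peak in both replicates. Of 5 markers of squamous epithelium, PAX9 did, and of 5 markers of stroma and blood, none did, with COL1A1 having one in replicate 1 alone. Lists of 5 genes are too short to be read against the share of all genes. Since a peak needs RNA that is both expressed and methylated, these counts do not show which cell type the RNA came from, nor which of the factors were active.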

How the data were processed

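Each m6A IP sample of OE-19 cells had its own peak list. According to the study's methods, reads were mapped to hg38 with TopHat2 and peaks were called with MACS2 at default settings, whereas the submitters' processing notes name fastp, HISAT2 and MACS2. Versions, and whether the input served as control, are not given in the sources used here. Per peak, the authors deposited a ratio of summit signal over local background (fold enrichment), −log10 of the p-value and q-value, a score derived from q, and the summit offset. The largest q was 0.0491 in replicate 1 and 0.0497 in replicate 2. The lists hold no read numbers, so depth is unknown.

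Genes and transcripts came from GENCODE version 44, and sequences from hg38. Exonic summits went to the gene of that exon, protein-coding genes first. Peaks overlapping by at least 1 bp were shared, and pairs were mutual largest overlaps. For regions, ties in CDS length were settled by the Ensembl canonical transcript. The 8 genes and the lists of 38, 22 and 5 genes were chosen with earlier results of these data known. All 8 genes are named, and of the longer lists at most the 5 strongest, beside counts of 5 or fewer and factors of the same families. 1 item that this rule would name is not reported here. No test was run, since the design holds 1 group. Alternatives changed the peak threshold, the sharing rule, the transcript, the windows and the replicates used. The scripts recovered planted positions and overlaps in simulated data. Tools were pysam 0.24.0, matplotlib 3.10.9, pandas 2.3.3, numpy 2.4.6 and scipy 1.17.1 under Python 3.11.15.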

Additional observations from a re-analysis of the deposited data

Results flagged for a closer look

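Peaks also lay outside the 8 genes, within 10 kb of their ends, and entered no comparison above. Downstream of CDX2, at 6465 and 6435 bp from its end, a shared peak in an exon of the long non-coding RNA LINC00543 was enriched 13.766-fold and 5.418-fold in replicates 1 and 2. Upstream of ELF3 lay a pair of shared peaks in exons of ELF3-AS1, a long non-coding RNA on the other strand. The farther one, at 8172 and 8122 bp from the start of ELF3, was enriched 4.629-fold and 5.092-fold. The nearer one, at 7704 and 7707 bp, had 7.472 and 6.027. Both ELF3-AS1 peaks thus exceeded every peak of ELF3 itself in each replicate. The other 6 genes had no peak within 10 kb of either end. No control peak lists were analysed here beside these values.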

How the results depend on the processing

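Of the alternative values, 65 stayed within 1.5 times the main count, the 95% Wilson interval of a share, or 1 SD of a median. A fold enrichment of 5 or more moved counts most. In both replicates, 2 of the 8 genes, 13 of 38 other factors and 0 of 22 target genes remained, beside 19.3% of protein-coding genes. It also left 10 and 3 gene body peaks, with shared portions of 40% in replicate 1 and 100% in replicate 2. With q of 1e-05 or less, the shared portion of replicate 2 was also 100%. Shared portions of all peaks are not given at these thresholds, and replicate 1 had the higher value in 80.0% of all exonic pairs. Without GATA4, the median fold enrichment of replicate 1 was 3.61. Relative to all exonic pairs, the median log2 ratio of the 13 pairs was 0.21. On ranks within each list, another unit, the same pairs stood 20.6 percentile points higher in replicate 1. A motif window of 100 nt gave GGAC at 78.6% and 90.9% of summits, and 4 motif variants gave 90.9% in replicate 2. The share over all exonic summits is not given for these settings, so these values are not set against the lists. With 1 replicate used alone, 1 to 4 target genes had a peak (the alternatives for target genes, and the restriction to exonic pairs, were added after seeing the data), and the 8-gene count stayed at 6. Stricter thresholds can only lower counts of genes and peaks, and a wider window or added motif variants can only raise the GGAC share. The cause of the other moves was not tested. No paired analysis was possible because the results come from no test and the input samples had no peak list here.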
